A study of Triticum aestivum and Aegilops tauschii and Triticum carthlicum with 33 samples.

Results

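Genes for 3 beta-tubulins and 1 profilin of the wheat cytoskeleton were followed through 11 groups of wheat and goatgrass leaves. The members were every probe set that the platform annotation gave to tubb1 (LOC543257), tubb2 (LOC543258), Tubb5 (LOC543261) and profilin (LOC543315). They were 4 of 771 genes with a symbol, and came to 8 of the 61179 probe sets tested: 1 for tubb1, 1 for tubb2, 4 for Tubb5 and 2 for profilin. All 8 were tested, with no filter on low values. A probe set is a group of short probes whose brightness is summarised as 1 level, here in log2 units. Levels of different probe sets are not comparable with each other, and probe sets of 1 gene were kept apart. The sets are called here by the ends of their identifiers, which the panel titles of the plots give in full: S1_at, S1_x_at, A1_at and A1_x_at for Tubb5, and S1_x_at and A1_at for profilin. A name ending in x_at marks a set with probes that also match unlike transcripts. The identifiers of the S1 sets of Tubb5 share 1 root and those of its A1 sets another, and sets of 1 root are not independent measurements.

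Beta-tubulin pairs with alpha-tubulin, and these dimers assemble into microtubules, the hollow filaments that form the mitotic spindle and, in growing plant cells, lie under the plasma membrane and guide the laying down of cellulose. Plants carry a family of beta-tubulin genes with near-identical proteins. Profilin is a small protein that binds actin monomers and controls their addition to actin filaments, the tracks for organelle and vesicle movement in leaf cells. Bread wheat carries 3 related genomes, A, B and D, so that each such gene usually has a copy in every genome, and a probe set may detect 1 copy better than another.

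Each group had 3 arrays, labelled as biological replicates, of leaf RNA. TTR13 (Triticum turgidum ssp. durum), TD265 (ssp. dicoccoides) and Blackbird (ssp. carthlicum) represented natural tetraploid wheat, which has the A and B genomes in 2 copies each (BBAA). The diploid goatgrass Aegilops tauschii, with the D genome, was represented by TQ18 and by 30A. TAA10 was a bread wheat, T. aestivum, with BBAADD. Extracted-tetra was a BBAA tetraploid recovered from bread wheat, by a cross to a durum line and repeated backcrossing to the hexaploid according to the series design, and so may retain durum segments. XX329 was an allohexaploid resynthesized with Extracted-tetra as mother, and its parental RNA mix held 2 parts of Extracted-tetra and 1 part of TQ18 RNA. Allo-960S7 was a newly synthesized hexaploid at selfed generation 7, and the Allo-960 mix held 2 parts of Blackbird and 1 part of 30A RNA. The labels name 1 line for each of these groups. The p values measure the spread between the 3 arrays of a group. Where lines are averaged, they do not measure the spread between lines.

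By their spiked-in hybridisation controls, 12 arrays stood apart from the other 21: means per array ran from 9.04 to 9.48 log2 units in the 12 and from 9.62 to 10.24 in the 21. The 12 were those of 30A, Blackbird, the Allo-960 mix and Allo-960S7. The labels name no batch, and no group had arrays in both sets. Array set and group cannot be told apart in Allo-960S7 against TAA10, in Blackbird against either TTR13 or TD265, and in 30A against TQ18. Of the 32 probe sets of the green leaf list, 14 had all group means above every array median. The 4 sets of PRK, PsbO and PsbP, proteins of the Calvin cycle and photosystem II, had group means of 13.26 to 14.42. The 28 sets of rbcl, the large Rubisco subunit, ran from 2.53 to 15.09, and 10 of them were above the medians in every group. The mean of the 18 probe sets of the dividing-cell list (5 genes for histones H2A and H2B) lay between 4.29 and 4.67 in all groups, near the array medians of 4.37 to 4.48. Its single sets were less even, with group means from 2.78 to 8.20. An H2A set lay at 6.21 to 7.28, and an H2B set had 8.20 in TTR13 and 4.94 in TD265. In whole leaves, fewer cells of a type and less RNA per cell cannot be told apart.

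The 4 Tubb5 probe sets fell into opposite pairs. By group means, both A1 sets were far higher in the Aegilops tauschii lines than in the tetraploids, with the bread wheat, the synthetic hexaploids and the mixes between, while both S1 sets were higher in the tetraploids. The tubb1 probe set was highest in TD265 and lowest in 30A, tubb2 was highest in XX329 and lowest in Allo-960S7, and 1 profilin probe set was lower in TD265 and both Aegilops tauschii lines than in every other group. In limma's fit of all 33 arrays, with Benjamini-Hochberg adjustment over the 61179 probe sets and a call at an adjusted p under 0.05, 195 of 440 member-by-pair comparisons (8 probe sets, 55 pairs of groups) were called. The background share over all probe sets and pairs was 27.5%.

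On A1_at, the Tubb5 probe set with the widest range, the levels of TTR13 were 4.27, 4.87 and 4.73, those of TD265 were 5.30, 5.22 and 5.29, and those of Blackbird were 4.82, 4.90 and 5.05. Extracted-tetra lay at 4.71, 4.96 and 4.72. Aegilops tauschii lay at 8.72, 8.54 and 8.39 in TQ18 and at 9.47, 9.12 and 8.91 in 30A. Every array of a diploid line lay above every tetraploid array. TD265 lay above the other tetraploid groups, and those overlapped one another. The tetraploid levels stood close to the array medians, and background was not assessed here, so folds against them are not secure. The arrays with both kinds of genome gave 6.19, 6.67 and 6.40 in TAA10, 5.62, 6.28 and 6.81 in XX329, and 6.25, 5.88 and 5.98 in Allo-960S7. The mixes gave 6.48, 7.23 and 6.07 (XX329 mix) and 7.52, 7.26 and 6.62 (Allo-960 mix). All of these lay above every tetraploid array and below every diploid array.

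**Figure D1:**
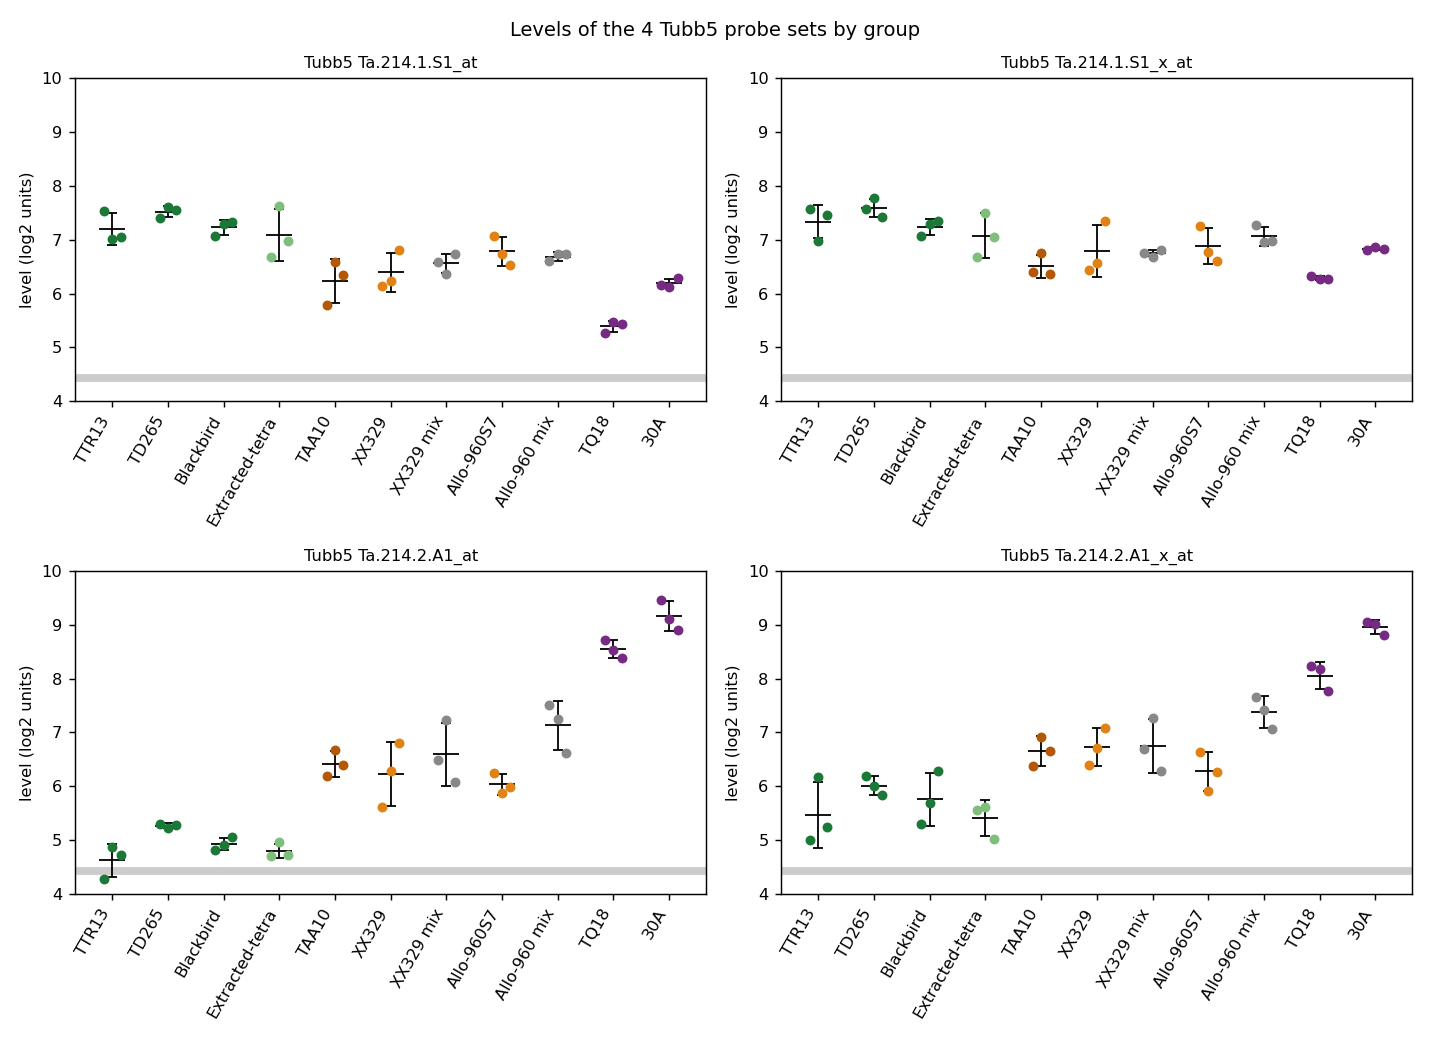
Levels of the 4 Tubb5 probe sets (y axes, log2 units) in the 11 groups (x axes). Points are arrays, coloured by kind of group (dark green natural tetraploids, light green Extracted-tetra, brown TAA10, orange hexaploids, grey mixes, purple Aegilops tauschii), and bars are the mean ± SD of 3 arrays. The grey band is the range of the array medians. The means of both A1 sets are highest in TQ18 and 30A, and those of S1_at are lowest there.

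A1_x_at, the x_at set beside it, kept the order of the kinds of group. Its group means were 5.40 to 6.01 in the 4 tetraploid groups, 6.28 to 7.38 in the hexaploids and mixes, 8.06 in TQ18 and 8.96 in 30A. Across the 11 group means, the 2 A1 sets had r = 0.99, a description over groups that share genomes and parents. Both belonged to the 1557 probe sets (2.54% of those tested) that were called in TQ18 and in 30A against every natural tetraploid line, with a difference of at least 2 log2 units. No member was among the 1941 probe sets with the opposite pattern. In the order of A1_at means (30A, TQ18, Allo-960 mix, XX329 mix, TAA10, XX329, Allo-960S7, TD265, Blackbird, Extracted-tetra, TTR13), the steps from TQ18 to the Allo-960 mix and from Allo-960S7 to TD265 passed the test and the others did not. On A1_x_at the steps that passed were from 30A to TQ18 and from TQ18 to the Allo-960 mix. Of the 55 pairs of groups, 40 were called on A1_at and 37 on A1_x_at.

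The S1 sets of Tubb5 ran the other way. On S1_at, the levels were 7.53, 7.01 and 7.06 in TTR13, 7.40, 7.60 and 7.55 in TD265, and 7.08, 7.29 and 7.33 in Blackbird. Extracted-tetra gave 6.68, 7.63 and 6.97, a spread wider than in any natural tetraploid, with 1 array above and 2 below all 9 natural arrays. The levels were 5.78, 6.59 and 6.34 in TAA10, 5.27, 5.47 and 5.44 in TQ18, and 6.16, 6.12 and 6.29 in 30A. TQ18 lay below every other group without overlap, and TAA10 overlapped with 30A. The hexaploid XX329 gave 6.14, 6.23 and 6.80, its mix 6.58, 6.37 and 6.73, Allo-960S7 7.08, 6.74 and 6.53, and the Allo-960 mix 6.60, 6.73 and 6.73. These 4 groups overlapped one another, with the lowest XX329 arrays among those of 30A and the highest Allo-960S7 array among the tetraploids. The group means of S1_x_at were 7.07 to 7.59 in the tetraploids, 6.51 in TAA10, 6.29 in TQ18 and 6.83 in 30A. Over the 11 group means, S1_at had r = 0.94 with its x_at set and r = −0.83 with A1_at. The order of S1_at means was TD265, Blackbird, TTR13, Extracted-tetra, Allo-960S7, Allo-960 mix, XX329 mix, XX329, TAA10, 30A and TQ18, and the last step was the only one between neighbours that passed, while none did on S1_x_at. Of the 55 pairs, 28 were called on S1_at and 17 on S1_x_at. How well the probes of either kind of set match the transcripts of each genome was not tested.

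Between Aegilops tauschii (6 arrays) and the natural tetraploids (9 arrays), 6 of the 8 members were called (2 were higher in the diploids, 4 lower) against a background of 51.6% of all probe sets (30.3% higher and 21.3% lower). A1_at was 3.92 log2 units higher (SE 0.16, adjusted p = 2.9e-19), and A1_x_at was 2.76 higher (SE 0.18, adjusted p = 1.74e-14). S1_at was lower by 2.88-fold, with a log2 difference of −1.53 (SE 0.13, adjusted p = 1.71e-11), and S1_x_at differed by −0.83 (SE 0.13, adjusted p = 2.41e-06). In each of these 4 probe sets, the arrays of the diploids and the tetraploids did not overlap. The share of all probe sets without overlap was not counted in any comparison, so a lack of overlap in members has no background here. These 4 calls held with each line left out of its mean in turn. The 3′ actin set differed by −0.23 and the 5′ set by 0.36 in this comparison (adjusted p = 0.0369 and 0.000178), and all 6 member calls held with the actin covariate. In the same comparison, 7 of the 18 probe sets of the dividing-cell list were higher and 7 lower, and their part in the Tubb5 result was not tested.

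Bread wheat against the natural tetraploids asks how far the levels of a plant with the D genome depart from tetraploids with the other genomes. Here 6 of 8 members were called, 4 higher and 2 lower in TAA10, with 29.4% of all probe sets called (11.8% higher and 17.6% lower). Tubb5 was 1.48 log2 units higher on A1_at (SE 0.20, adjusted p = 1.12e-06) and 0.90 higher on A1_x_at (SE 0.22, adjusted p = 0.00254). The S1 sets differed by −1.08 on S1_at (SE 0.17, adjusted p = 6.39e-06) and by −0.88 on S1_x_at (SE 0.16, adjusted p = 0.000108). All 4 were without overlap between the 3 bread wheat arrays and the 9 tetraploid arrays, and the share of all probe sets without overlap was not counted. The natural tetraploid arrays are shared with the comparison of Aegilops tauschii, and the TAA10 arrays with the next one.

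How leaves with BBAA alone differ from their bread wheat source was asked by setting Extracted-tetra against TAA10. Of the 8 members, 4 were called, all of them Tubb5 probe sets, 2 higher and 2 lower, and the background was 18.3% (11.3% higher and 7.04% lower). S1_at rose in Extracted-tetra to 7.09 ± 0.49 from 6.24 ± 0.41 (mean ± SD, n = 3 each), 1.81-fold, with an adjusted p of 0.00258 in limma, and S1_x_at rose by 0.56 log2 units (SE 0.20, adjusted p = 0.0497). A1_at fell to 4.80 ± 0.14 from 6.42 ± 0.24 (n = 3 each, limma adjusted p = 1.34e-05), and A1_x_at fell by 1.25 log2 units (SE 0.27, adjusted p = 0.00121). Only S1_x_at had arrays that overlapped between the groups, and its call was lost without any 1 of 4 arrays (Extracted-tetra replicates 2 and 3, TAA10 replicates 1 and 3; adjusted p = 0.0614 with the replicate number as a block). Actin controls for the 3′ end minus those for the 5′ end, a reading of RNA integrity, moved with this comparison: TAA10 had −0.46 ± 0.19 log2 units and 0.34 ± 0.25 were measured in the extracted tetraploid (mean ± SD, n = 3 each). The 3′ set had group means of 4.45 to 5.41 and the 5′ set of 5.05 to 5.99. Array medians were 4.37 to 4.48, and background was not assessed. In every comparison, this reading and the fits with it as a covariate are therefore not secure. With the 3′ minus 5′ actin difference as a covariate, only A1_at of the 4 kept its call, and S1_at stood at 0.64 (SE 0.28, adjusted p = 0.187). In a fit of the 6 arrays of these groups alone, S1_at had an adjusted p of 0.0572. For tubb1 the difference was −0.14 (95% interval −0.94 to 0.66), and for tubb2 it was 0.57 (0.13 to 1.00, adjusted p = 0.0641).

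Against the natural tetraploids, which share its genomes, Extracted-tetra had 2 of 8 members called, both of them profilin, with 24.4% of all probe sets called. The Tubb5 differences were −0.23 on S1_at (95% interval −0.56 to 0.11) and −0.14 on A1_at (−0.56 to 0.28). Neither passed the test.

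The 2 Aegilops tauschii lines differed in Tubb5. TQ18 was lower than 30A on S1_at, with a log2 difference of −0.79 (SE 0.20, adjusted p = 0.0059), and on A1_x_at, with −0.91 (SE 0.27, adjusted p = 0.0197). These were 2 of 8 members, against 18.5% of all probe sets, and here the line cannot be told apart from the array set. The 3′ minus 5′ actin reading was −0.68 ± 0.15 in TQ18 and −1.50 ± 0.17 in 30A (mean ± SD, n = 3 each). With it as a covariate S1_at stood at −1.01 (adjusted p = 0.0243) and A1_x_at at −0.83 (adjusted p = 0.217), which ended the second call. That call was also lost when 30A replicate 1, 30A replicate 2 or TQ18 replicate 3 was left out. Both other Tubb5 sets also had all TQ18 arrays below all 30A arrays, at −0.54 (adjusted p = 0.0578) and −0.61 (adjusted p = 0.0874), and did not pass. The tetraploid lines gave no call in Tubb5 among themselves.

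The tubb1 probe set varied within groups more than 99.2% of all probe sets, with a residual SD of 0.54 log2 units against a median of 0.18. TD265 was tightly placed at 11.94, 11.99 and 11.96. The lines 30A (9.25, 10.34 and 8.80) and TQ18 (10.38, 10.70 and 9.15) spread over more than a log2 unit each. XX329 had 1 array at 10.04 and the others at 11.70 and 11.78. The first XX329 array thus lay among the mixes and the others near TD265. TTR13 gave 10.13, 9.98 and 10.96, Blackbird 10.59, 10.66 and 11.19, Extracted-tetra 10.79, 10.98 and 10.23, and TAA10 10.75, 10.68 and 10.997. The remaining groups were Allo-960S7 at 9.85, 9.85 and 10.30, the XX329 mix at 10.55, 10.78 and 9.94, and the Allo-960 mix at 10.04, 10.59 and 10.59. TD265 lay above every array of the other 10 groups, and many pairs of the other groups overlapped.

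**Figure D2:**
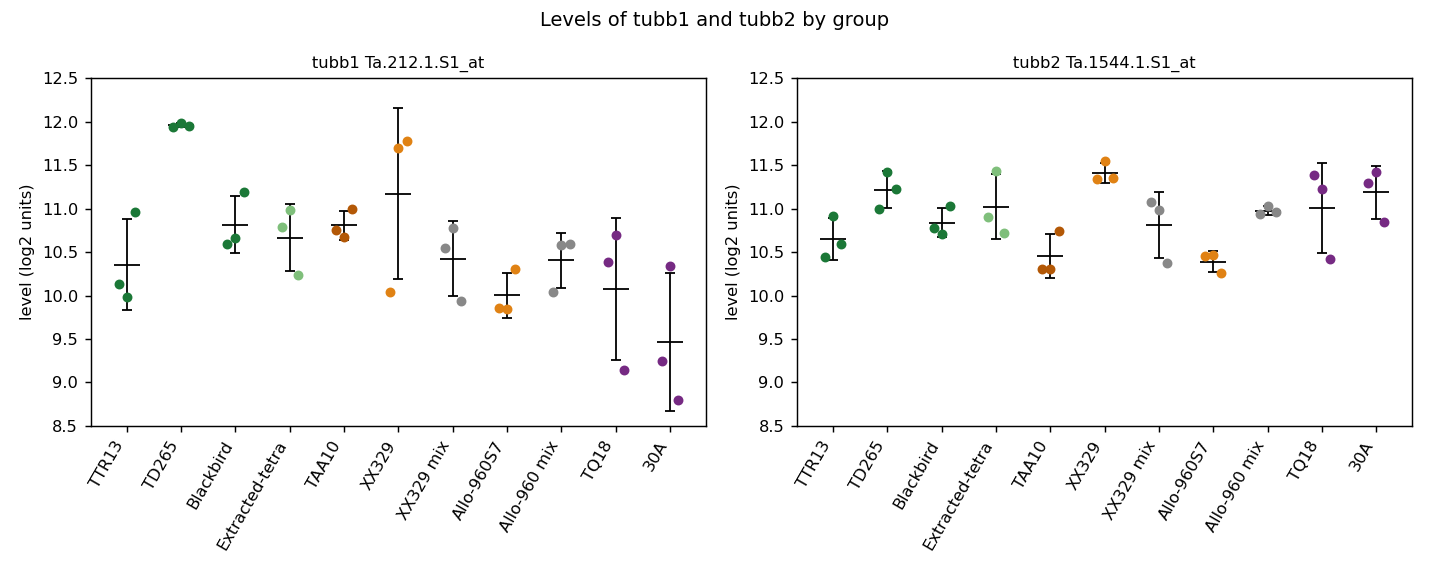
Levels of tubb1 (left) and tubb2 (right) in log2 units (y axes) in the 11 groups (x axes). Points are arrays, coloured by kind of group (dark green natural tetraploids, light green Extracted-tetra, brown TAA10, orange hexaploids, grey mixes, purple Aegilops tauschii), and bars are the mean ± SD of 3 arrays. The 3 TD265 arrays of tubb1 lie together at the top, and those of XX329 are split.

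Among the natural tetraploids, tubb1 was 3.05-fold lower in TTR13 than in TD265, with a log2 difference of −1.61 (SE 0.39, limma adjusted p = 0.00274). There 2 of 8 members were called, tubb1 among them, against 22.3% of all probe sets. TD265 was also above Blackbird by 1.15 (SE 0.39, adjusted p = 0.0362). In that comparison 2 of 8 members were called, against 20.1% of all probe sets. The tubb1 call was lost in 5 of the 6 fits that left out an array (any TD265 array, or Blackbird replicate 1 or 2). Line and array set cannot be told apart. The 3′ minus 5′ actin reading was −0.32 ± 0.19 in TD265 and −0.93 ± 0.34 in Blackbird (mean ± SD, n = 3 each), and with it as a covariate the tubb1 difference was 1.32 (adjusted p = 0.0716). Centred on the hybridisation controls, it was 0.54 (adjusted p = 0.211), while the median of all probe sets moved from 0.03 to −0.57. Between TTR13 and Blackbird no member was called by limma, 0 of 8 also at an unadjusted p under 0.05, with a background of 16.3%; the tubb1 difference was −0.46 (95% interval −1.26 to 0.34).

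Aegilops tauschii was 2.42-fold lower than the natural tetraploids for tubb1, a log2 difference of −1.28 (SE 0.25, adjusted p = 7.86e-05), although arrays of the kinds overlapped. Blackbird was 1.35 above 30A (SE 0.39, adjusted p = 0.00588, background 38.6%), 1 of the 16 pairs of groups called for tubb1 of 55. In the order of group means (TD265, XX329, Blackbird, TAA10, Extracted-tetra, XX329 mix, Allo-960 mix, TTR13, TQ18, Allo-960S7, 30A) no neighbours differed beyond the test. The 3 named probe sets whose 11 group means were most like those of tubb1, among 1265 candidates, belonged to LOC543200 (r = 0.90), LOC778415 (r = 0.86) and LOC778422 (r = 0.84).

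The range of group means of tubb2 was narrower. The highest group was XX329, with 11.34, 11.54 and 11.36, and the lowest were Allo-960S7, with 10.46, 10.46 and 10.26, and TAA10, with 10.30, 10.31 and 10.75. The parents of XX329 gave 10.91, 11.44 and 10.72 (Extracted-tetra) and 11.38, 11.23 and 10.42 (TQ18), and those of Allo-960S7 gave 10.77, 10.71 and 11.03 (Blackbird) and 11.30, 11.43 and 10.84 (30A). So each hexaploid mean lay outside its parents' means, on opposite sides. The XX329 arrays at 11.34 and 11.36 still lay below the highest array of each parent, while all Allo-960S7 arrays lay below those of both parents. In the tests of pairs, Allo-960S7 passed against 30A and not against Blackbird, and XX329 passed against neither parent. The mixes were 11.07, 10.98 and 10.38 (XX329 mix) and 10.94, 11.03 and 10.96 (Allo-960 mix). The remaining tetraploids were TTR13 at 10.44, 10.92 and 10.60, and TD265 at 10.997, 11.43 and 11.23. TAA10 was below the natural tetraploids in mean, with a log2 difference of −0.45 (SE 0.17, adjusted p = 0.0504) that did not pass, and below TD265 alone by 1.70-fold (adjusted p = 0.00616, background 31.8%). Of the 55 pairs of groups, 12 were called. In the order of group means (XX329, TD265, 30A, Extracted-tetra, TQ18, Allo-960 mix, Blackbird, XX329 mix, TTR13, TAA10, Allo-960S7) no neighbours passed the test. The probe sets most like tubb2 over the 11 group means, among 1265 candidates, were those of LOC780628, LOC543214 and LOC543071 (r = 0.72 for each). These r values were not tested. The group means of the LOC543214 set ran only from 2.54 to 2.72, below the array medians.

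Each hexaploid was set against the mix of its parents' RNA, a stand-in for additive expression. All 3 XX329 arrays of tubb2 were above all 3 arrays of the XX329 mix, 11.41 ± 0.11 against 10.81 ± 0.38 (mean ± SD, n = 3 each), but the difference of 0.60 (SE 0.21, limma adjusted p = 0.171) did not pass. All 3 Allo-960S7 arrays were below all 3 of the Allo-960 mix, 10.39 ± 0.12 against 10.98 ± 0.048 (n = 3 each), a difference of −0.59 (SE 0.21, limma adjusted p = 0.0915), which did not pass either. The difference between these departures did: 1.19 log2 units (SE 0.30, 95% interval 0.57 to 1.81, adjusted p = 0.0191). It was the 1 member of 8 called in that contrast, against 4.02% of all probe sets. It was lost when XX329 replicate 2 or XX329 mix replicate 3 was left out, with values of 0.97 to 1.32 over the 12 fits that left out an array. Centring on the hybridisation controls also ended it, at 1.04 (adjusted p = 0.157, median of all probe sets −0.15).

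XX329 was above TAA10 for tubb2 in all 3 arrays, by 0.96 (SE 0.21, adjusted p = 0.00802, 1.95-fold). That was 1 member of 8, against a background of 2.14%, and the call was lost without TAA10 replicate 1 or 2, and with centring on the hybridisation controls (0.69, adjusted p = 0.0977, median of all probe sets −0.26). XX329 was also 2.03-fold above Allo-960S7 (log2 difference 1.02, SE 0.21, adjusted p = 0.00072, background 19.7%), across the array sets.

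**Figure D3:**
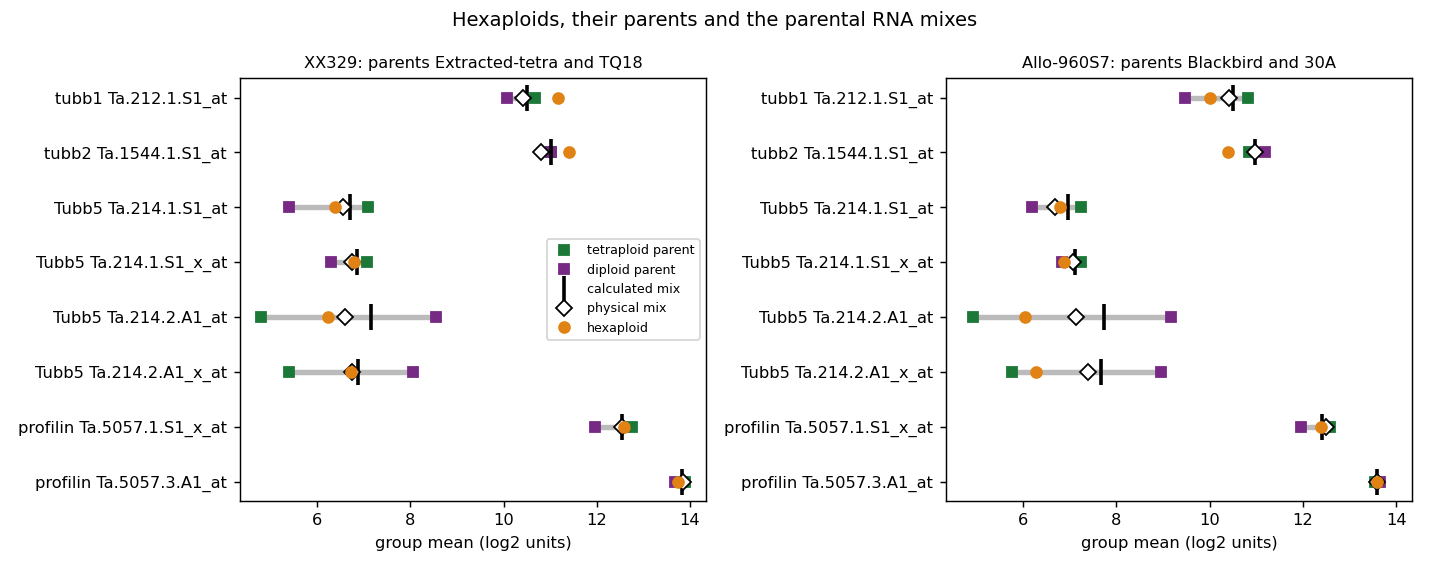
Group means of the 8 members (x axes, log2 units) for XX329 (left) and Allo-960S7 (right), with both parents (squares), the physical RNA mix (diamonds), the mix calculated from the parents (black bars) and the hexaploid (orange), each mean over 3 arrays. For tubb2 the mean of XX329 lies above and that of Allo-960S7 below both parents' means, and on A1_at of Tubb5 the physical mixes lie below the calculated ones.

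In Tubb5, Allo-960S7 was lower than its mix on both A1 probe sets, by 2.13-fold on A1_at (log2 difference −1.09, SE 0.25, adjusted p = 0.00407) and by 2.15-fold on A1_x_at (−1.10, SE 0.27, adjusted p = 0.00835). These were 2 of 8 members, against 8.54% of all probe sets, and the arrays of hexaploid and mix did not overlap. The second call was lost without Allo-960S7 replicate 2. For XX329 against its mix, limma called 0 of 8 members, with a background of 1.88% and 1 member (tubb2) at an unadjusted p under 0.05. The Tubb5 values there were −0.36 on A1_at (95% interval −0.87 to 0.15) and −0.01 on A1_x_at (−0.58 to 0.55). With the physical mixes, the difference between the hexaploids did not pass for either set (0.73, adjusted p = 0.332; 1.09, adjusted p = 0.13).

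On A1_at of Tubb5, the physical mixes differed from a mix calculated from the parents' linear levels at 2 to 1. The difference was −0.57 log2 units in the XX329 mix and −0.59 in the Allo-960 mix. Against the calculated mixes, with the physical mixes replaced, Allo-960S7 was lower, with a log2 difference of −1.69 (SE 0.22, adjusted p = 2.46e-05), and XX329 also differed, at −0.93 (SE 0.22, adjusted p = 0.012). On A1_x_at the same comparisons gave −1.39 in Allo-960S7 (adjusted p = 0.000565) and −0.14 in XX329 (adjusted p = 0.802). The difference between the hexaploids then passed on A1_x_at, at 1.26 (SE 0.35, adjusted p = 0.0455), and not on A1_at, at 0.76 (adjusted p = 0.232). For tubb2 the Allo-960S7 departure became a call, at −0.59 (SE 0.17, adjusted p = 0.0229), and that of XX329 was 0.39 (SE 0.17, adjusted p = 0.176). Which Tubb5 and tubb2 departures passed thus differed between the fits. For tubb2 in Allo-960S7 the difference was −0.59 against either mix, and only its SE was smaller with the calculated one. The parents' arrays were left out of that fit. For the 4 Tubb5 sets, both hexaploid means lay between those of their parents. The hexaploid XX329 was above both parents for tubb1 as well, at 11.17 ± 0.98 (n = 3), but its arrays spread from 10.04 to 11.78, past both parents' means of 10.67 and 10.08.

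**Figure D4:**
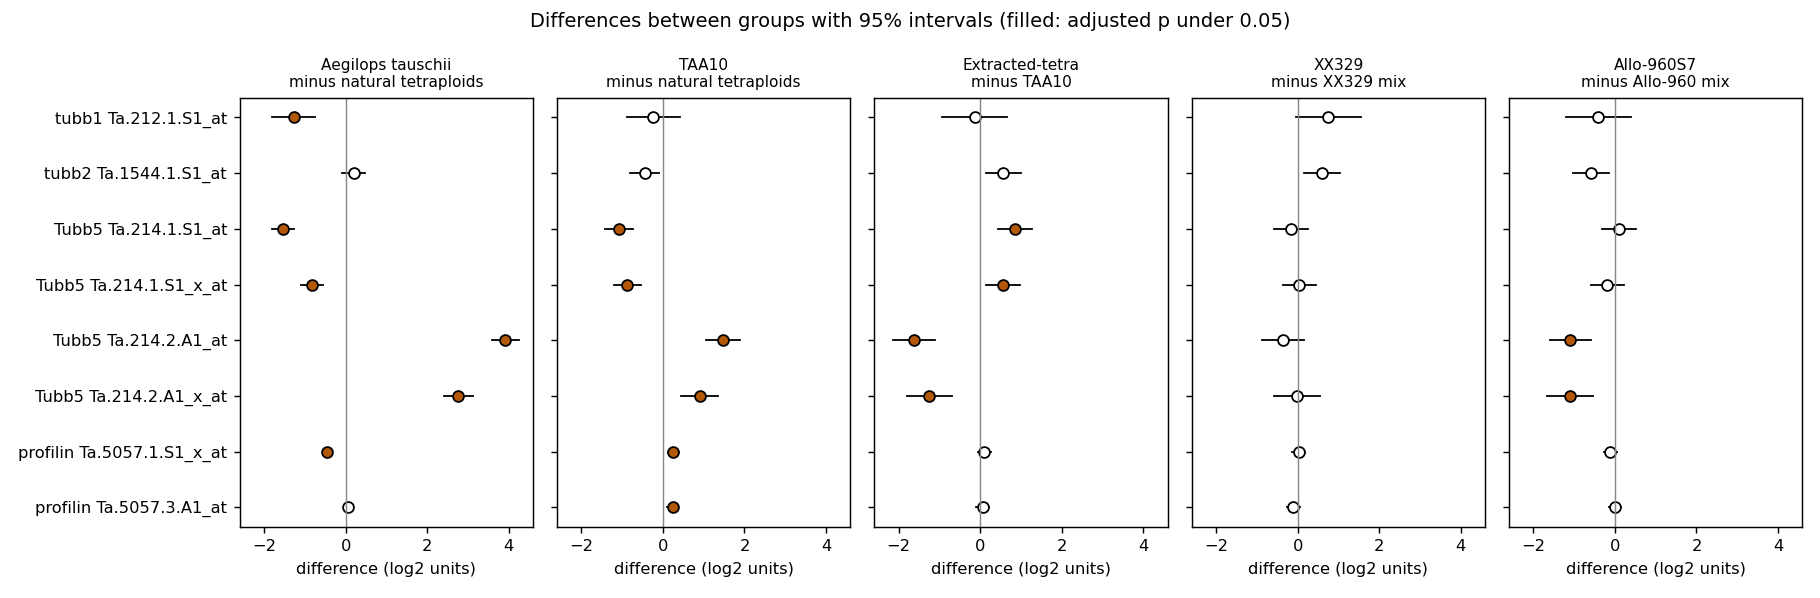
Log2 differences of the 8 members (x axes) in 5 comparisons, named above each panel as first minus second, with 95% intervals from the fit of 33 arrays and filled points for calls at an adjusted p under 0.05. The S1 and A1 sets of Tubb5 lie on opposite sides of 0 in the left 3 panels, and both A1 sets lie near −1.1 in Allo-960S7 against its mix.

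Profilin was among the most steadily measured transcripts. Its probe set S1_x_at had a residual SD of 0.057 log2 units, and only 0.152% of all probe sets had a smaller one. The levels of TD265 were 12.004, 12.07 and 12.04, those of TQ18 11.92, 11.93 and 12.02, and those of 30A 11.88, 12.01 and 11.94. These 3 groups formed a low block that no other array entered. The other groups ran from Allo-960S7, with 12.40, 12.40 and 12.34, to Extracted-tetra, with 12.76, 12.77 and 12.72. Between them lay TTR13 (12.64, 12.56 and 12.51), Blackbird (12.59, 12.53 and 12.64), TAA10 (12.66, 12.66 and 12.64), XX329 (12.49, 12.72 and 12.52) and the mixes (12.47 to 12.59). In the order of group means, the step from Allo-960S7 down to TD265 was the only one between neighbours that passed.

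**Figure D5:**
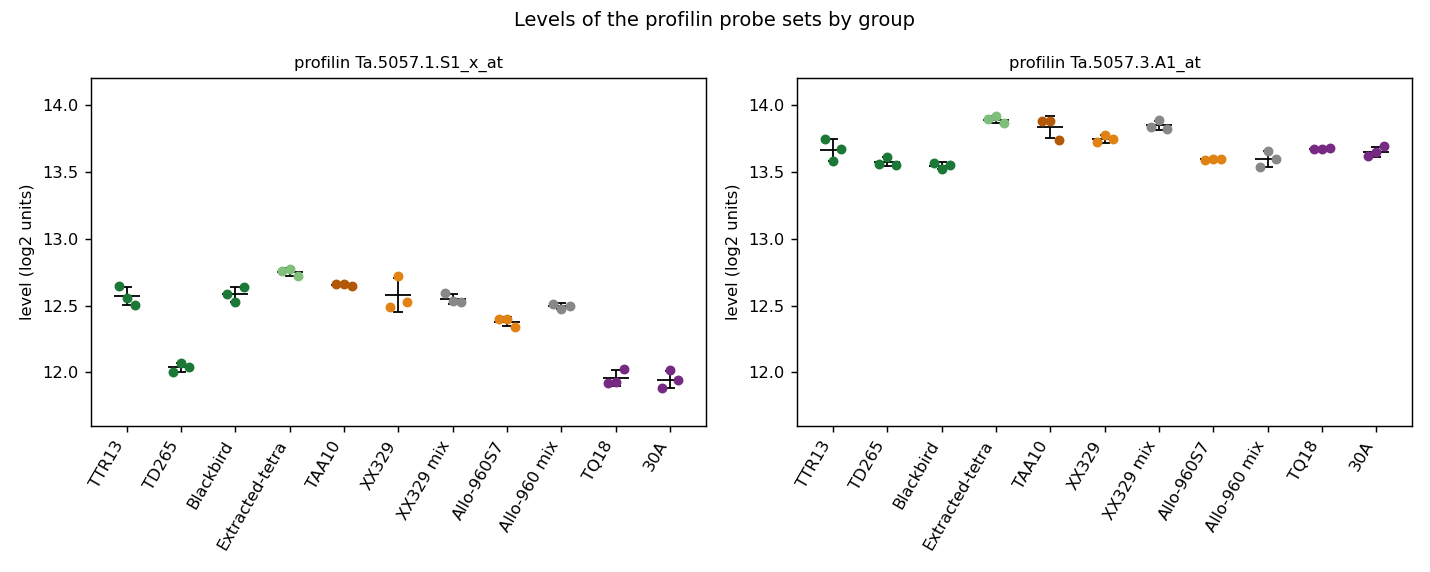
Levels of the 2 profilin probe sets (y axes, log2 units) in the 11 groups (x axes). Points are arrays, coloured by kind of group (dark green natural tetraploids, light green Extracted-tetra, brown TAA10, orange hexaploids, grey mixes, purple Aegilops tauschii), and bars are the mean ± SD of 3 arrays. On S1_x_at TD265, TQ18 and 30A lie apart at the bottom, and on A1_at they do not.

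The second set, A1_at, showed no such block. Its group means ran from 13.55 in Blackbird to 13.89 in Extracted-tetra, and TD265 (13.56, 13.62 and 13.56), TQ18 (13.67, 13.67 and 13.68) and 30A (13.62, 13.65 and 13.69) lay inside that range. Its mean over all arrays was above that of 99.9% of probe sets, and saturation was not tested. Over the 11 group means the profilin sets had r = 0.49. Of the 55 pairs of groups, 27 were called on S1_x_at and 18 on A1_at, where no neighbours in the order of means passed.

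TD265 was lower than TTR13 and Blackbird on profilin S1_x_at, with log2 differences of 0.53 (TTR13 minus TD265, SE 0.080, adjusted p = 5.86e-06) and −0.55 (TD265 minus Blackbird, SE 0.080, adjusted p = 3.59e-06). On A1_at the same pairs gave 0.09 (95% interval −0.07 to 0.24) and 0.03 (−0.12 to 0.19). Aegilops tauschii was lower than the natural tetraploids on the first set, by 1.36-fold (log2 difference −0.45, SE 0.051, adjusted p = 9.55e-09), with overlap of arrays through TD265. On the second set that difference was 0.06 (−0.04 to 0.16).

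Extracted-tetra was above the natural tetraploids on both profilin sets, by 0.35 (SE 0.065, adjusted p = 0.000128) and 0.29 (SE 0.062, adjusted p = 0.000633), without overlap of arrays. TAA10 was above them by 0.26 (SE 0.065, adjusted p = 0.00295) and 0.24 (SE 0.062, adjusted p = 0.00389). Leaving TD265 out of the mean moved the first set to 0.18 for Extracted-tetra (adjusted p = 0.0737) and to 0.08 for TAA10 (adjusted p = 0.449), which ended both calls. Without the 12 arrays that stood apart, the second set of TAA10 stood at 0.21 (SE 0.079, adjusted p = 0.0554). Centring on the hybridisation controls ended all 4 profilin calls, with 0.21 (adjusted p = 0.2) and 0.15 (adjusted p = 0.371) for Extracted-tetra and 0.12 (adjusted p = 0.45) and 0.10 (adjusted p = 0.542) for TAA10. Under it the medians of all probe sets moved from −0.03 to −0.18 and from −0.08 to −0.22. The 3′ actin set was 0.58 higher in Extracted-tetra than in the natural tetraploids (adjusted p = 0.000303) and the 5′ set differed by −0.26 (adjusted p = 0.0505). With the actin reading as a covariate both Extracted-tetra profilin calls held, at 0.38 (adjusted p = 0.0236) and 0.34 (adjusted p = 0.0363). Extracted-tetra and TAA10 themselves differed by 0.10 (−0.07 to 0.26) and 0.06 (−0.10 to 0.21).

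Both profilin sets, and no other member, were called between Allo-960S7 and bread wheat. They were lower in Allo-960S7 by 1.21-fold (log2 difference −0.28, SE 0.080, adjusted p = 0.0118) and 1.18-fold (−0.24, SE 0.076, adjusted p = 0.0221), 2 of 8 members against 22.0% of all probe sets. The 3′ minus 5′ actin reading was −1.24 ± 0.10 in Allo-960S7 and −0.46 ± 0.19 in TAA10 (mean ± SD, n = 3 each), and the 5′ actin set was 0.56 higher in Allo-960S7 (adjusted p = 0.000628). With that reading as a covariate the profilin differences were −0.30 (adjusted p = 0.0788) and −0.28 (adjusted p = 0.0858), and neither passed. With arrays centred on the hybridisation controls the values were 0.18 (adjusted p = 0.285) and 0.22 (adjusted p = 0.204), which did not pass and lay below the median of all probe sets, which moved from 0.01 to 0.47. The second call was lost in 5 of the 6 fits that left out an array. Neither hexaploid differed from its mix beyond the test: the profilin differences were 0.03 (−0.14 to 0.19) and −0.10 (−0.26 to 0.05) in XX329, and −0.11 (−0.28 to 0.05) and 0.00 (−0.15 to 0.16) in Allo-960S7. By group means, the probe sets most like profilin A1_at were those of LOC543418 (r = 0.92), LOC542881 (r = 0.91) and LOC543153 (r = 0.91). Those most like Tubb5 S1_x_at were those of LOC780668 (r = 0.96), LOC543448 (r = 0.89) and LOC778419 (r = 0.88). The group means of the LOC543448 set ranged over only 0.19 log2 units.

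The other named tubulins on the array were tubb3, Tubb4 and TUBA (4 probe sets of 3 genes), a list chosen by symbol or alias. None of the 4 was called between Extracted-tetra and TAA10, where Tubb5 changed, nor in TAA10 or Extracted-tetra against the natural tetraploids, XX329 against its mix or TAA10, or TQ18 against 30A. The median of the 4 log2 differences was 0.12 in Extracted-tetra against TAA10, beside 0.05 over all probe sets. In Aegilops tauschii against the natural tetraploids, 2 rose and 1 fell: Tubb4 differed by 0.37, 1 TUBA set by 0.36 and tubb3 by −0.33, with a median of 0.20 beside 0.06 over all probe sets. The group means of that TUBA set, 3.94 to 4.55, lay near the array medians. The other, brighter TUBA set differed by 0.03 (limma adjusted p = 0.771). In TTR13 against TD265, tubb3 was lower, with a log2 difference of −0.95, the direction of tubb1 in that comparison. There the brighter TUBA set was higher, with 0.38 (adjusted p = 0.0294). The same TUBA set fell by 0.51 log2 units in Allo-960S7 against its mix, where the dimmer TUBA set differed by 0.02. Of the actin controls, the 3′ actin set was 0.75 log2 units higher in Extracted-tetra than in TAA10 (SE 0.14, adjusted p = 0.000173), the 5′ set differed by −0.05 and the sets for the middle of the transcript by 0.00 and 0.13.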

How the data were processed

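Leaf RNA of 33 samples was hybridised to the Affymetrix wheat array. Per the labels' protocols, chambers were held at 24 °C (day, 16 h) and 20 °C (night), and 6 µg of total RNA per array was labelled. The deposited values are log2 levels, 1 for each probe set on each array. Per the submitters' processing notes the tools were RMA and limma, with no version. Background readings were not used here. The number of arrays limits the precision.

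Of 61290 rows, 111 Affymetrix controls were left out. With limma 3.58.1 (R 4.3.3), 1 mean per group was fitted over all 33 arrays, leaving 22 residual degrees of freedom and 28.51 after moderation. Benjamini-Hochberg adjustment ran over all probe sets, separately for 13 main contrasts and 55 pairs of groups. The fit was tested on simulated data for Extracted-tetra against TAA10. It recovered 32% of 100 changes of 1.5-fold and 81% of 100 changes of 2-fold, with 6 false calls. No other probe set was changed in the simulation, and its noise was independent between probe sets. In the data 18.3% of all probe sets were called in this comparison, so these figures need not hold for the data. Names came from the platform annotation (1273 probe sets with 1 symbol for 771 genes, 59906 without a symbol) and a RefSeq table used for names only.

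All probe sets of the 4 genes are named. For each gene, the 3 probe sets of other named genes with the highest r over group means are named, taken against the gene's brightest probe set. Members and lists were chosen with earlier results of these data known. The planned words for cytoskeleton genes and cell markers were matched to symbols and aliases, since the tables used here hold no descriptions; this found the tubulins only through the aliases TUB and TUBA.

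Arrays of 2 groups with the same replicate number were to count as pairs only if their deviations from the group means had r over 0.1 in all 3 pairs. That held for TQ18 with 30A (0.10 to 0.14) and for no other groups compared. No mix was checked against its parents in this way. The main fit was unpaired for every comparison, that of TQ18 with 30A included. A fit with the replicate number as a block is among the alternatives. Alternatives are given in the closing section.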

Additional observations from a re-analysis of the deposited data

Results flagged for a closer look

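The departure of tubb2 from the parental RNA mix differed between the hexaploids. XX329 was 0.60 log2 units above its mix and Allo-960S7 differed by −0.59 from its own, with no overlap of arrays in either. The difference of 1.19 (SE 0.30) had an adjusted p of 0.0191 in limma's interaction contrast over all probe sets. The hexaploids also differ in parents and in array set, and these cannot be told apart. With arrays centred on the hybridisation controls the value was 1.04 and did not pass, and the cause was not tested.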

How the results depend on the processing

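The 30 member calls of the 13 main comparisons all kept their direction except under centring on the hybridisation controls, which ended 10 calls, 2 of them with the sign turned (profilin in Allo-960S7 against TAA10, at 0.18 and 0.22, below a median of all probe sets of 0.47). That centring moved the median of all probe sets in other comparisons too (TTR13 minus Blackbird from 0.01 to −0.56, TQ18 minus 30A from −0.01 to −0.75). Under it, members called were 0 in Extracted-tetra against the natural tetraploids, 0 in the difference between the hexaploids, 0 in XX329 against TAA10, 7 in TTR13 against Blackbird (73.6% of all probe sets called) and 7 in TQ18 against 30A (87.2%), so both counts of 7 of 8 lay near the background.

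A minimum of 1 log2 unit left 2 members in Extracted-tetra against TAA10, 0 in Extracted-tetra against the natural tetraploids, 2 in TAA10 against these, 0 in XX329 and 0 in Allo-960S7 against TAA10, 1 in TTR13 and 1 in Blackbird against TD265, 0 in TQ18 against 30A and 96 member-by-pair calls. The actin covariate gave 1 in Extracted-tetra against TAA10, 0 in Allo-960S7 against TAA10, 1 in TD265 against Blackbird and 1 in TQ18 against 30A. Fits of only the groups compared gave 2, 1, 4 and 4 in Extracted-tetra and Allo-960S7 against TAA10 and in TTR13 and Blackbird against TD265. Array weights gave 4 in TTR13 against TD265 and 1 in TQ18 against 30A, and eBayes with trend and robust settings gave 1 in TD265 against Blackbird. Without TD265, 1 member was called in Extracted-tetra against the natural tetraploids. Against calculated mixes, 1 was called for XX329 and 2 for the difference between the hexaploids.

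With the dimmest 33.3% of probe sets left out, or median centring, no call was lost; quantile normalization again ended 1. Within the 21 arrays 2 of 21 calls were lost, and within the 12 arrays 0 of 8. With the replicate number as a block, the counts were 4 in Extracted-tetra against TAA10, 7 in TAA10 against the natural tetraploids and 2 in TQ18 against 30A, and 191 member-by-pair calls; the 1 call lost was that of Tubb5 S1_x_at in Extracted-tetra against TAA10.

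Leaving out single arrays gave 1 to 2 members in TQ18 against 30A, Allo-960S7 against its mix, Allo-960S7 against TAA10 and TD265 against Blackbird. It gave 0 to 2 in the difference between the hexaploids, 0 to 1 in XX329 against TAA10, 2 to 4 in Extracted-tetra against the natural tetraploids and in TTR13 against TD265, 3 to 4 in Extracted-tetra against TAA10, 6 to 7 in TAA10 and in Aegilops tauschii against the natural tetraploids, 0 in XX329 against its mix and TTR13 against Blackbird, and 183 to 207 member-by-pair calls. The cause of these changes was not tested.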

Other observations

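Of the pairs of members whose deviations from group means were compared, tubb1 and tubb2 varied together from array to array, with r = 0.588 and rho = 0.571 over 33 arrays (permutation p = 0.00453 and 0.00506). Over the 60 relations computed, the Benjamini-Hochberg values were 0.0906 and 0.101, so the relation did not pass. It was 0.54 without the 2 arrays farthest from the median of tubb1, 0.572 within the 21 arrays and 0.68 within the 12. The mixes hold RNA of the parental lines, so the 33 arrays may not be independent, and the permutation did not allow for this. For tubb1, the deviations of replicates 1, 2 and 3 were 0.12, 0.31 and −0.43 in Extracted-tetra and 0.31, 0.62 and −0.93 in TQ18. In the XX329 mix they were 0.12, 0.36 and −0.48. The arrays of a group share their mean, and no explanation was tested.

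Chosen after the values were seen, the named probe sets most like Tubb5 A1_at over the 11 group means were those of LOC542999 (r = 0.97), LOC542890 (r = 0.97) and LOC606373 (r = 0.97).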
